A study of Mus musculus with 139 samples.

Results

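Small Cajal body-specific RNAs (scaRNAs) were examined in small RNA libraries from mouse tissues. The rows were taken by their class in the deposited count table, which labels 51 of 6114 genes as scaRNA. Counts were present on 25 of the 51 rows, 26 rows had none, and 16 rows passed the filter on low counts and were tested. The mice were wild-type adults of the inbred C57BL/6J strain, aged 3 months and given no treatment. They comprised 13 libraries of liver, 14 each of brain, kidney, muscle and spleen, 13 each of heart and lung, 12 each of bone marrow, intestine and pancreas, and 3 labelled testis. Animals 1 to 10 were female and animals 11 to 14 male, and 1 animal gave up to 11 tissues.

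scaRNAs are guide RNAs of the Cajal body, a nuclear compartment where spliceosomal small nuclear RNAs (snRNAs) mature. With partner proteins they direct methylation of ribose or conversion of uridine to pseudouridine at chosen positions of the snRNAs. Those of the box C/D kind carry a C box and a D box near their ends, those of the box H/ACA kind end in an ACA box, and some scaRNAs combine both. A short CAB box is known to retain many of them in the Cajal body.

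Both kinds of ends were present among the 16 tested rows. Motifs were searched on the transcript strand only, as TGATGA for the C box, CTGA for the D box and TGAG for the CAB box. A D box followed by G also holds a CAB box, and a C box followed by G does too. A C box within the first 20 bases together with a D box within the last 15 was present in 31.25% of the tested rows, namely Scarna17, Scarna6, Gm25395, Gm25443 and Gm22009. It was present in 20.2% of all 1507 annotated snoRNA transcripts and in 0.871% of the 919 that have at least 120 bases. Scarna17 and Gm25443, at 79 and 76 bases, are shorter than 120 bases, so the shares of tested rows and of those 919 cover unlike lengths. An ACA followed by 2 to 4 bases at the 3′ end was present in 62.5% of the tested rows against 43.5% of all snoRNA transcripts and 59.8% of those of at least 120 bases. CTGA occurred anywhere in 68.75% of the tested rows, in 79.5% of the snoRNA transcripts and in 74.6% of those of at least 120 bases. TGAG occurred in 75% of the tested rows, in 51.0% of the snoRNA transcripts and in 36.9% of those of at least 120 bases. These 2 motifs were counted at any position, and lengths differ between the sets, so the shares do not show functional boxes. Scarna2, a guide for U2 snRNA, had a D box near its end without a C box in its first bases.

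The next sequences show both kinds of ends among abundant and tissue-dependent rows. They are annotated transcripts of GENCODE M21 on GRCm38, written 5′ to 3′. Scarna6 lies at chr1:87784556-87784820 and Gm25395 at chr1:87776938-87777209, both on the plus strand in introns of Atg16l1, an autophagy gene. Gm23751 lies at chr6:125121724-125121859 on the plus strand in an intron of Chd4, Gm24289 at chr9:64295931-64296065 on the plus strand in an intron of Tipin, and Scarna8 at chr4:86586453-86586583 on the minus strand in an intron of Haus6. Capitals mark the C, D and CAB boxes as searched, and in the last 3 sequences the ACA near the 3′ end.
Scarna6: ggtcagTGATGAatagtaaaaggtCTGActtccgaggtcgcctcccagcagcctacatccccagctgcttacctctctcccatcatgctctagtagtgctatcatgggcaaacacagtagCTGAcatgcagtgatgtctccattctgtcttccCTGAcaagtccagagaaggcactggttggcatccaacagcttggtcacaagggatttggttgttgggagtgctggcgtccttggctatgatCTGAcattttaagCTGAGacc
Gm25395: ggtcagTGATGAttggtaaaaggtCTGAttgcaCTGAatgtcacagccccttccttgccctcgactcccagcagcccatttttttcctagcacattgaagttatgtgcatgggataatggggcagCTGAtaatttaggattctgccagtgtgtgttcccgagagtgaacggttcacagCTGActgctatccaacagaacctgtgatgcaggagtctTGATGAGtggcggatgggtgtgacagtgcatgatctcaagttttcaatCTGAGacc
Gm23751: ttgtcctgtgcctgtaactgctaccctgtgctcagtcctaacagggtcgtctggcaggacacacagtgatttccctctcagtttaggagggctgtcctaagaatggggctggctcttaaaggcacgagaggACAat
Gm24289: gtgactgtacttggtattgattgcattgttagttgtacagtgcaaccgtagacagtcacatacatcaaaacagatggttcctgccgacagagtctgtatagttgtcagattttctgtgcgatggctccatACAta
Scarna8: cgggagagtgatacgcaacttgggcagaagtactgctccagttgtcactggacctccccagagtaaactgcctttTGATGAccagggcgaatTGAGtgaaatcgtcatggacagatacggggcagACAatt
Scarna6 and Gm25395 share their first 12 bases and 62.6% of aligned positions. Neither shares a run of 30 bases with the other.

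The most abundant scaRNA, Scarna17, has a near copy in the annotation. Scarna17, whose human counterpart guides ribose methylation of U12 and U4 snRNAs, lies at chr18:74778391-74778469 on the minus strand between genes and is 79 bases long. Gm25443 lies at chr19:11695267-11695342 on the plus strand, also between genes, and is 76 bases long. Their first 70 bases are identical, as are 92.4% of aligned positions. The similarity reaches their neighbours: Gm23119, which starts 91 bases beyond Scarna17, and Gm26183, 87 bases from Gm25443, are 92.9% identical. Reads within the shared bases cannot be assigned to 1 of the 2 rows, and the counting rule for such reads is not given in the sources used here. Values of Scarna17 and Gm25443 are therefore not independent, and the split between them is uncertain. Their 2 rows were also the shortest tested, since the other 14 ranged from 128 to 414 bases. The single reads were shorter than every tested row, so a count does not show that the whole RNA was present.

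Of the 16 tested rows, 12 lay in introns of genes on the same strand and 4 lay between genes (Scarna17, Gm25443, Scarna2 and Gm25058). The other intron hosts were Cop1 for Scarna3a, Kpna4 for Gm22009, Ppp1r8 for Gm22767, G3bp2 for Gm22728, Bud23 for Gm25492, Chd3 for Gm22442 and Snhg10 for Scarna13. Scarna3a overlaps Mir1843b and Scarna13 overlaps Mir3069 on the same strand, so their reads can belong to the miRNA gene. Shared runs of 30 bases also joined Gm24289 to Gm23505, Gm25058 to Gm25820 and Gm22442 to Gm23386, and their counts are uncertain for that reason.

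A single gene carried most of the class. scaRNA rows took 0.250% of all counts, and Scarna17 held 75.1% of that with 2023246 counts. Scarna6, a guide for U5 snRNA, held 17.2% and Gm25395 held 3.88%. Gm23751 followed with 0.937%, Gm25443 with 0.819%, Scarna2 with 0.663%, Gm24289 with 0.452% and Gm22009 with 0.295%. The other 8 tested rows ranged from 257 counts for Gm25058 to 4779 counts for Gm25492. Scarna17 had counts in all 134 libraries and was the highest scaRNA row in 125 of them. Scarna6 was the highest in the other 9, of which 5 were bone marrow libraries, 2 brain, 1 intestine and 1 spleen.

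Rows outside the test held little. The 9 rows with counts that did not pass the filter had 88 counts in all: 43 on Gm23119, 19 on Gm24644, 13 on Gm26347, 4 on Gm26183, 4 on Gm24718 and at most 2 on each of the other 4. Gm23119 was found in 9 of 14 spleen libraries, and Gm24644 in 7 of 12 bone marrow libraries. Neither exceeded 5.85 CPM, raw counts scaled to a common library total, in any library. For the 26 rows at 0, the floor of 3 counts over all libraries allows a level of up to 0.00279 CPM, which covers counting error only. Another annotated small RNA entry overlaps 13 of these 26 on the same strand. For the rows of Gm23370, Gm22813, Gm25820, Gm22897 and Gm26413 it is another scaRNA entry of the same name. The rows Mir1839, Gm26083 and Scarna3b overlap the miRNA genes Mir1839, Mir6516 and Mir1843a, which can draw reads away from them.

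Depth differed widely, from 10255 to 34095704 counts per library with a median of 6327550, and the medians were 990388 in liver and 100238.5 in pancreas. The library Pancreas 11 had the fewest, 10255 counts, and held Scarna17 as its single scaRNA. Pancreas 13 and Brain 11 were nearly as shallow, at 13795 and 17201 counts. In 10 of the 11 labelled tissues every listed marker miRNA was present, and in liver Mir122, the hepatocyte miRNA, ranged from 10280 to 75204 CPM against at most 74.5 in the other libraries. The bone marrow markers were shared with spleen, where they were higher. In the 3 libraries labelled testis, 9 of 10 germ cell miRNAs were at 0 and their summed level was 0 to 0.138 CPM, against a median of 11.9 CPM in heart, so the label is used below as a label only. In whole tissue, fewer cells of a type and less RNA per cell cannot be told apart.

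As a share of all counts, scaRNAs were highest in liver. The liver libraries held a median of 1.19% with a range of 0.291 to 4.94%. Median shares elsewhere were 0.378% in brain, 0.275% in pancreas, 0.264% in spleen and 0.215% in bone marrow. They were 0.169% in heart, 0.154% in lung and 0.105% in muscle. The lowest were 0.0630% in intestine, 0.0523% in the libraries labelled testis and 0.0405% in kidney. The liver and kidney ranges did not overlap, since the highest kidney library held 0.222%.

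Within animals, the summed scaRNA level in liver, as log2 CPM, exceeded the mean of the same animal's other tissues by 3.05 ± 1.06 (SD, n = 13 animals), which is 8.28-fold, and it was above in 13 of 13. Without Scarna17 the difference was 1.06 ± 0.67, or 2.08-fold, and 12 of 13 animals lay above. That sum still held the near copy Gm25443, which is not independent of Scarna17. In liver the median was 118 CPM for Gm25443 and 554 CPM for the sum without Scarna17, against 17.5 and 328 CPM over all other libraries. The order of tissues changed when Scarna17 was set aside. On unscaled totals, the sum of the other rows was then highest in spleen. It was 1.99 ± 0.59 above the same animal's other tissues in 14 of 14 animals, followed by bone marrow at 1.45 ± 0.58 in 12 of 12. In a fit on unscaled totals, the median log2 fold change over all genes was also positive, 0.71 in spleen and 1.11 in bone marrow. After TMM scaling between libraries, Scarna6, the largest of these rows, had means of 811 CPM in spleen, 754 in liver and 460 in bone marrow. This order of tissues therefore depends on the scale. In brain it was 1.05 ± 0.96 above, in 11 of 14. On unscaled totals kidney was low on both measures. Its whole sum differed by -2.01 ± 1.07 and its sum without Scarna17 by -1.84 ± 0.81, below in all 14 animals each time. The median log2 fold change over all genes in kidney was -1.16 on unscaled totals and -0.32 after TMM scaling. In the TMM-scaled fit, Scarna17 in kidney was at -0.75 ± 0.45 and not called (adjusted p = 0.203, edgeR quasi-likelihood test). These sums were not tested and are given as descriptions.

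Scarna17 was far more abundant in liver than elsewhere. Raw CPM by liver library was 2359 in animal 1, 9128 in animal 2, 30809 in animal 4, 48755 in animal 5, 10940 in animal 6, 14852 in animal 7, 16522 in animal 8, 14551 in animal 9 and 15511 in animal 10. In animals 11 to 14 it was 9819, 10247, 9598 and 11247. Animal 1 was low and animals 4 and 5 were high, while the others lay close together; the animal 5 library held only 78905 counts. The liver median was 11247 CPM. Of the 121 other libraries, 28 exceeded the lowest liver library and 1 exceeded the liver median. Relative to snoRNA counts in the same library, 69 exceeded the lowest liver library and 21 the liver median. The library above the median in CPM was Pancreas 13, at 15150 CPM on 209 Scarna17 counts. Pancreas 12, at 10853 CPM, and Brain 11, at 10116 CPM, came next, on 719 and 174 counts.

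**Figure D1:**
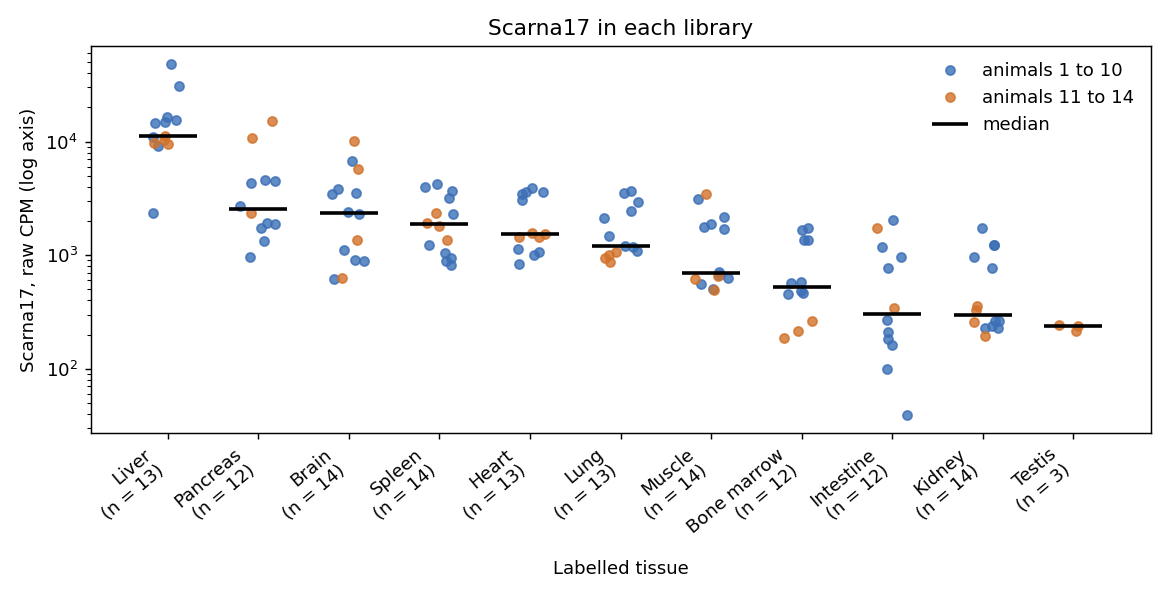
Scarna17 level (raw CPM, log axis) in each of 134 libraries, with labelled tissues ordered by median (black bars) and animal sets in 2 colours. The liver libraries span 2359 to 48755 CPM, and all but 1 of the 13 lie at or above 9128 CPM, while 1 of 121 other libraries exceeds the liver median.

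The next tissues in order were pancreas with a median of 2536 CPM (960 to 15150), brain with 2346 (611 to 10116), spleen with 1866 (819 to 4218), heart with 1538 (835 to 3928) and lung with 1215 (863 to 3671). Muscle had 693 (493 to 3472), bone marrow 524 (187 to 1726), intestine 304 (38.9 to 2034), kidney 298 (196 to 1745) and the libraries labelled testis 237 (215 to 244). The ranges of every neighbouring pair in this order overlapped, liver and pancreas included.

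In the fit over all tissues, with library pool as a term, Scarna17 in liver exceeded the mean of the other 10 tissues by a log2 fold change of 3.95 ± 0.40 (SE, adjusted p = 4.96e-16, edgeR quasi-likelihood test with Benjamini-Hochberg adjustment over 1268 genes). After TMM scaling its level was 22653 ± 25485 CPM in liver (SD, n = 13) against a mean of 1707 over the other tissues. Liver also exceeded each of the other 10 tissues singly, where between 10.6% (against the libraries labelled testis) and 20.3% (against pancreas) of all genes were called higher; against the others it was 17.4% for bone marrow, 15.2% for brain, 13.5% for heart and for muscle, 14.3% for intestine, 15.1% for kidney, 14.4% for lung and 12.9% for spleen. The smallest differences were 2.67 against muscle and 2.75 against pancreas, and the largest was 5.65 against the libraries labelled testis. Among tissues of animals 1 to 10 that shared the liver libraries' pool, the differences were 2.75 against pancreas, 3.57 against lung, 3.93 against spleen and 4.27 against kidney, fitted over all animals. A separate fit of tissue by animal set left out the libraries labelled testis. There the liver difference from the remaining tissues was 4.08 ± 0.31 within animals 1 to 10. Within animals 11 to 14 it was 2.86 ± 0.52 (adjusted p = 6.72e-06).

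Outside liver, Scarna17 was called lower in bone marrow, with a log2 fold change of -2.12 ± 0.51 (adjusted p = 0.000188), and in intestine, with -1.06 ± 0.46 (adjusted p = 0.0459). It was called higher in muscle at 1.01 ± 0.38 (adjusted p = 0.0266), but this value turned to -0.19 with unscaled library totals. It also missed the threshold with animal as a replicate block (0.72, adjusted p = 0.165) and with each of 7 other reference libraries for the TMM scaling (0.64 to 0.998). Values of -2.26 ± 0.93 in the libraries labelled testis and 0.92 ± 0.39 in pancreas did not pass (adjusted p = 0.0690 and 0.0534).

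The near copy Gm25443 had the same order at its ends. Its liver libraries ran from 33.1 to 226.6 CPM with a median of 118, the pancreas median was 39.4 and the highest other library, Pancreas 6, had 113. Its liver difference was 3.36 ± 0.25 (adjusted p = 4.71e-25), and liver exceeded each of the other 10 tissues, by 2.15 against pancreas at the least. With both rows summed the liver difference was 4.01 ± 0.39. Per 100 Scarna17 counts, tissue medians of Gm25443 lay between 0.954 and 1.79 in 10 tissues and at 3.30 in kidney. The proportion was not constant within liver: it was 3.47 in animal 1 and 0.0780 in animal 5, against 1.01 to 1.32 in animals 11 to 14. Animals 4, 5 and 6 combined Scarna17 levels at or above 10940 CPM with proportions of 0.303 or less.

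**Figure D2:**
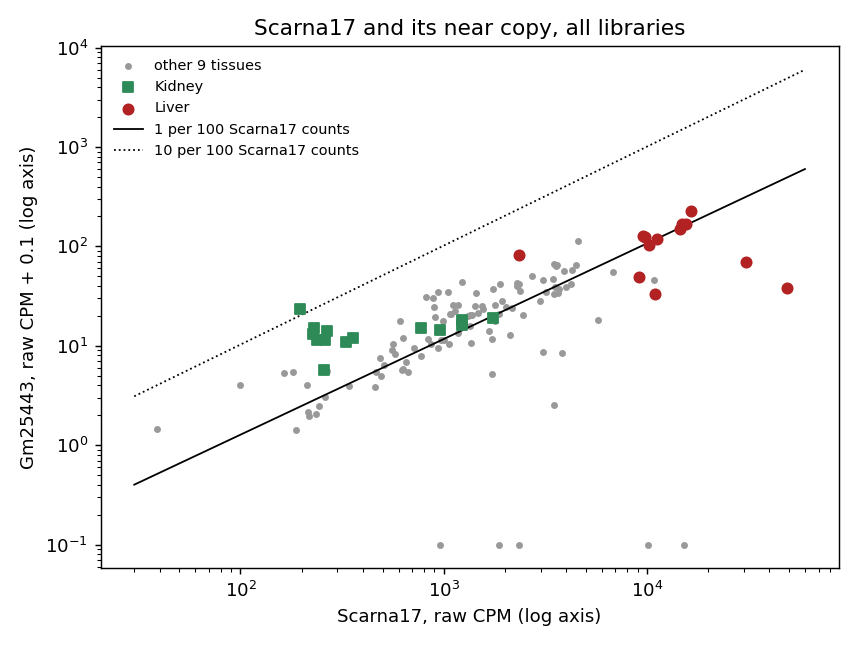
Gm25443 against Scarna17 in 134 libraries, both as raw CPM on log axes (0.1 added to Gm25443), with liver and kidney marked. The lines mark 1 and 10 Gm25443 counts per 100 Scarna17 counts: most points lie near the lower line, kidney libraries of low Scarna17 lie above it, and liver animals 4, 5 and 6 lie below it.

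Set against the rest of the class, Scarna17 took a median of 94.9% of scaRNA counts in liver (81.0 to 98.7%). This share was 91.4% in heart, 88.4% in pancreas, 79.0% in muscle, 77.3% in lung, 76.8% in kidney, 71.0% in brain and 67.3% in intestine. It was 52.6% in spleen, 44.1% in the libraries labelled testis and 43.0% in bone marrow. The log2 ratio within a library needs no scaling between libraries, but 0.5 counts were added to each term, which weighs on libraries with few scaRNA counts; Pancreas 11, with 10255 counts in all, had no count of any other scaRNA. Within animals, the log2 ratio of Scarna17 to the other scaRNAs was 2.47 ± 1.15 higher in liver than in the same animal's other tissues (13 of 13 animals, 5.53-fold). The same difference was 1.93 ± 1.30 in pancreas (11 of 12 animals) and 1.28 ± 0.58 in heart (13 of 13). It was -1.58 ± 0.60 in spleen (0 of 14 above) and -2.83 ± 0.78 in bone marrow (0 of 12 above). Liver libraries overlapped with others on this ratio, since 43 of 121 other libraries exceeded the lowest liver library and 8 exceeded the liver median.

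**Figure D3:**
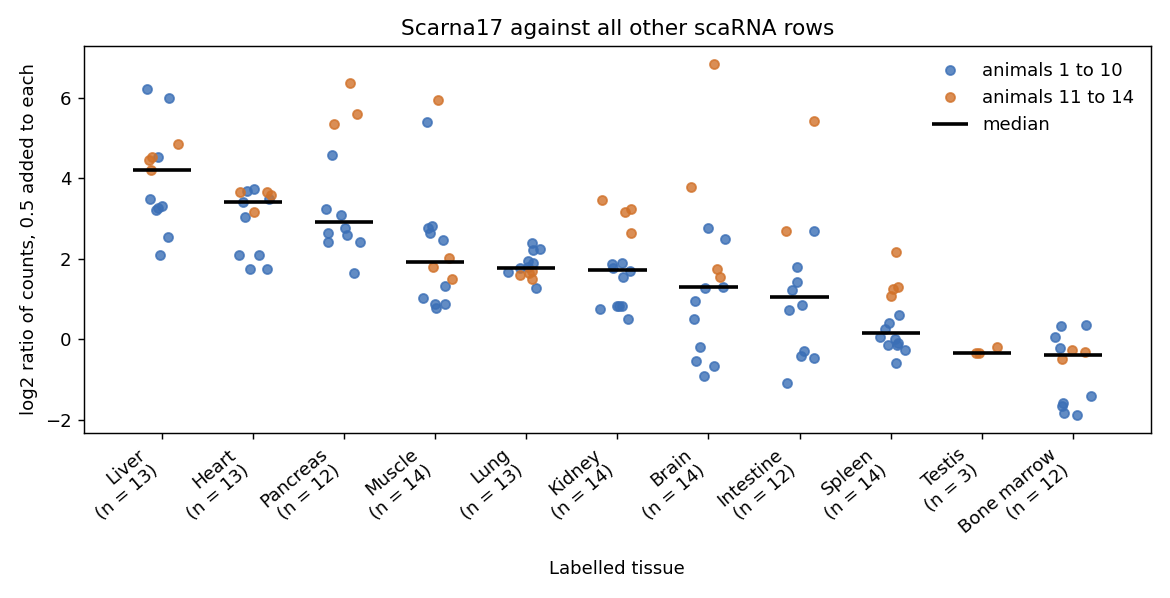
The log2 ratio of Scarna17 counts to the summed counts of the other 50 scaRNA rows (0.5 added to each) in each library, by labelled tissue, with medians as black bars and animal sets in 2 colours. The liver median is 4.21 and the bone marrow median -0.40. Orange points above 5 in pancreas, muscle, brain and intestine belong to animals 11 to 14. Outside liver, libraries of animals 1 to 10 reach up to 5.41.

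The pair of the most abundant rows, Scarna17 and Scarna6, was tested alone. Their log2 ratio was 2.43 ± 1.24 higher in liver than in the mean of the same animal's other tissues, with 13 of 13 animals above (exact two-sided sign-flip permutation test, p = 0.000244, the smallest that 13 animals allow). In animals 1 to 10 the value was 2.65 ± 1.42 in 9 of 9 (exact p = 0.00391), and in animals 11 to 14 it was 1.92 ± 0.50 in 4 of 4, where the smallest exact p is 0.13. The descriptive value in pancreas was 2.70 ± 1.48, above in 12 of 12 animals, so liver was not alone in this ratio.

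The other tested rows went both ways in liver. Of the 16, 5 were called higher and 3 lower, and 8 were neither, where a call needs an adjusted p below 0.05 and a log2 fold change of at least 1 in size. Over all 1268 genes, 11.2% were called higher in liver and 21% lower. The members' median log2 fold change was 0.00, against -0.56 over all genes. Because Scarna17 and Gm25443 share bases, the 5 called higher stand for at most 4 separable signals. Beside those 2, Gm25395 was higher by 1.5 ± 0.26 (adjusted p = 4.93e-07), Scarna6 by 1.26 ± 0.29 (adjusted p = 0.000214) and Gm22442 by 2.01 ± 0.54 (adjusted p = 0.00130). The last rests on low levels, as Gm22442 was found in 7 of 13 liver libraries at up to 3.03 CPM.

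Scarna6 had a raw liver median of 315 CPM with a range of 172 to 1829, below its medians of 1076 in bone marrow, 812 in brain and 666 in spleen. Its order over tissues by raw CPM and its call in the scaled fit thus rest on different scales. After TMM scaling its liver level was 754 ± 550 CPM against 332 over the other tissues. Gm25395 followed it, with 80.0 CPM in liver (38.3 to 469), 268 in bone marrow and 197 in brain. Gm25395 counts per 100 Scarna6 counts had tissue medians from 12.9 in kidney to 43.4 in pancreas, and 21.7 in liver.

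The rows called lower in liver were Gm22009 at -1.25 ± 0.37 (adjusted p = 0.00413), Scarna8, a guide for U2 snRNA, at -1.11 ± 0.38 (adjusted p = 0.0141) and Gm22767 at -2.10 ± 0.56 (adjusted p = 0.00121). Gm22009 turned to 0.09 in animals 1 to 10 alone. Scarna8 was -0.99, just short of a call, with 1 of 7 other references, and -0.95 without the 3 testis-labelled libraries. All 3 were low in liver: their median levels were 2.66, 1.05 and 0.208 CPM. Gm25492 had a liver difference of 0.98 ± 0.31 (adjusted p = 0.00783), just under the fold threshold. Gm24289, Gm23751, Scarna3a, Scarna2, Scarna13 and Gm25058 had values from 0.28 down to -0.67. Within animals 1 to 10, Gm25492 (1.65), Gm23751 (1.35, adjusted p = 8.95e-07) and Scarna2 (1.26, adjusted p = 1.48e-05) were called higher in liver. Gm22728 was found in 1 of 13 liver libraries.

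**Figure D4:**
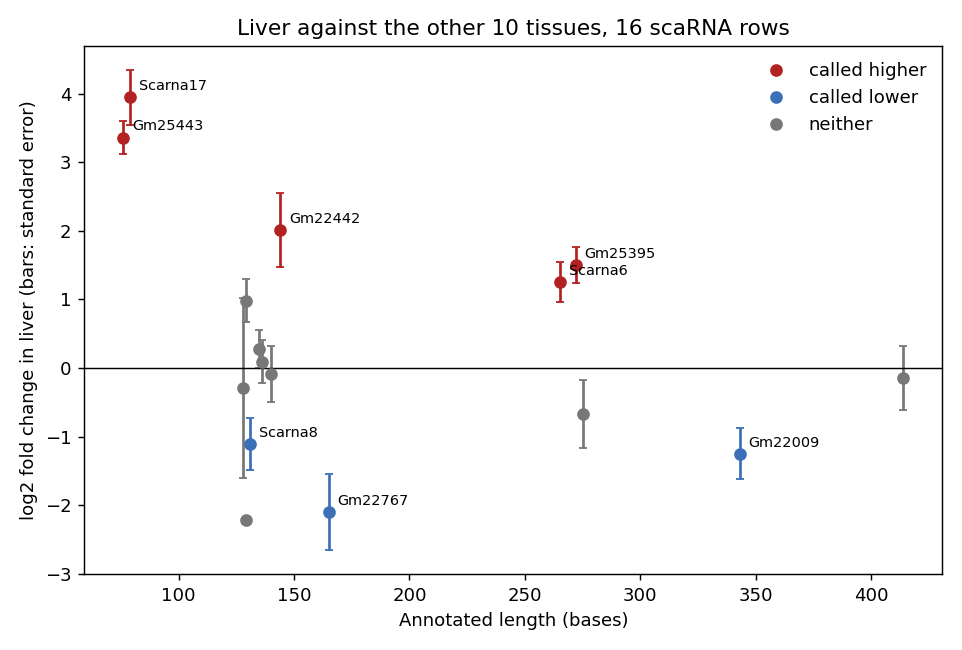
Log2 fold change in liver against the mean of the other 10 tissues for the 16 tested rows, by annotated length in bases (bars: standard error, not given for Gm22728, the lowest point). The 2 shortest rows, which share 70 bases, have the values 3.95 and 3.36, and the 14 longer rows range from -2.22 to 2.01.

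Over all tissues, 27 of 176 pairs of a row and a tissue were called higher and 23 lower, which is 15.3% and 13.1%. Over all genes 20% of the pairs were called higher and 16.1% lower, so the class had slightly fewer calls than the table as a whole. For comparison, 17.4% of pairs were higher and 10.6% lower among 276 snoRNA genes, and 19.9% and 8.57% among 52 snRNA genes, the class that holds the targets of scaRNA guides. TMM scales every library to 1 reference library, here Heart 13, and leaving out any 1 of 107 of the 134 libraries moves that choice to 1 of 7 others. With all libraries kept and only the reference changed, 38 of the 50 calls held under all 7 and 12 were lost under at least 1; no value changed sign.

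**Figure D5:**
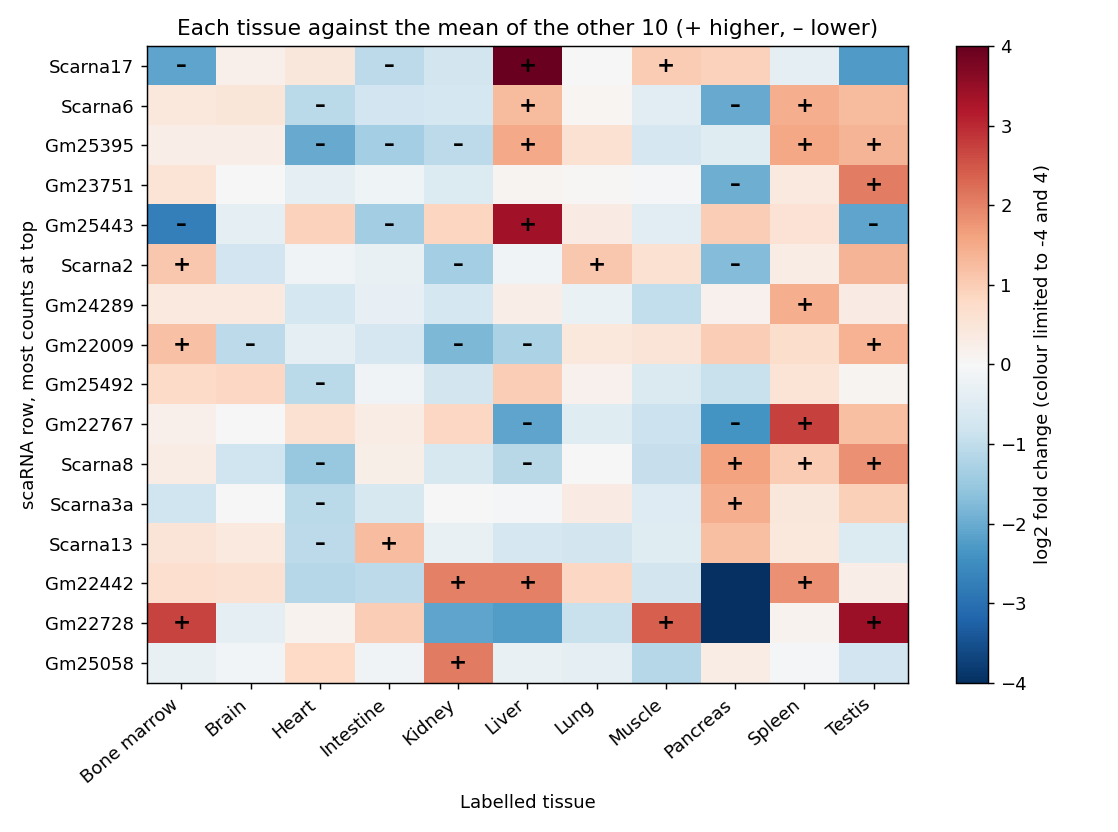
Log2 fold change of each tissue against the mean of the other 10 for the 16 tested scaRNA rows, ordered by total counts, with + for called higher and – for called lower. Scarna17 in liver is at 3.95; Gm22442 and Gm22728 in pancreas, where no library had a count, are not called and their fitted values are no measure of size.

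Spleen had the most rows called higher, 6 of 16 with none lower, against 20.4% and 14.4% of all genes. They were Gm22767 at 2.73 ± 0.30, Gm22442 at 1.84 ± 0.43, Gm25395 at 1.53 ± 0.24, Scarna6 at 1.46 ± 0.28, Gm24289 at 1.44 ± 0.22 and Scarna8 at 1.0 ± 0.25. Scarna8 was at the threshold and lost its call with 5 of 7 other TMM references (0.80 to 1.22 over the 7). Gm22767 had a median of 17.9 CPM in spleen (0.946 to 49.1), against a median of at most 1.91 in any other tissue. Its spleen libraries separated by animal set, with 9.56 to 49.1 CPM in animals 1 to 10 and 0.946 to 5.87 in animals 11 to 14. Gm24289 had 40.5 CPM in spleen (16.5 to 59.2), and its next tissue was bone marrow with 24.4.

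In bone marrow, 3 rows were higher and 2 lower, against 28.9% and 18.6% of all genes. Gm22728 was higher by 2.71 ± 0.43, Gm22009 by 1.16 ± 0.28 and Scarna2 by 1.07 ± 0.39, while Scarna17 and Gm25443 (-2.75 ± 0.34) were lower. Gm22009 turned to -0.10 in animals 1 to 10 alone and Scarna2 lost its call with 3 of 7 other references (0.88 to 1.15). Scarna2 had 22.8 CPM in bone marrow (5.95 to 28.9) and 19.4 in spleen. Brain had no row higher, against 36.7% of all genes, and 1 lower, Gm22009 at -1.05 ± 0.35, against 22.6%; that call was lost with 3 of 7 other references (-1.43 to -0.89).

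Heart had 6 rows lower and none higher, against 17.6% and 12.1% of all genes. Gm25395 was lower by -2.0 ± 0.30, Scarna8 by -1.52 ± 0.31, Scarna3a by -1.09 ± 0.33, Gm25492 by -1.07 ± 0.30, Scarna6 by -1.07 ± 0.32 and Scarna13, a guide for U2 and U5 snRNAs, by -1.05 ± 0.41. The last 4 lie close to the fold threshold, and each lost its call with 6 of 7 other references, with values from -1.21 to -0.65. Only the calls of Gm25395 and Scarna8 in heart held under all 7. Scarna8 and Gm25492 turned to 0.25 and 0.32 in the libraries of animals 11 to 14 alone. Scarna6 had 160 CPM in heart (60.6 to 281), and bone marrow was higher within each animal set. The ranges were 140 to 281 CPM in heart and 777 to 1278 in bone marrow in animals 1 to 10, and 60.6 to 74.6 and 110 to 173 in animals 11 to 14.

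In kidney, 2 rows were higher and 3 lower, against 14.3% and 19.2% of all genes. Gm25058 was higher by 2.08 ± 0.76 and Gm22442 by 2.02 ± 0.49, both at medians under 0.4 CPM. Gm22009 was lower by -1.81 ± 0.35, Scarna2 by -1.37 ± 0.46 and Gm25395 by -1.03 ± 0.29. Gm25395 lost its call with 3 of 7 other references (-1.09 to -0.89). With snoRNA totals as the scale, Scarna2 turned to 0.08 and Gm25395 to 0.75. In intestine, Gm25443 at -1.40 ± 0.32, Gm25395 at -1.34 ± 0.31 and Scarna17 were lower, against 10% of all genes. Scarna13 was higher there by 1.25 ± 0.40, against 34.7% of all genes, but lost its call with 5 of 7 other references (0.47 to 1.19).

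In pancreas, Scarna8 was higher by 1.60 ± 0.40 and Scarna3a by 1.44 ± 0.43, against 11.3% of all genes. Gm22767 (-2.38 ± 0.89), Scarna6 (-2.03 ± 0.39), Gm23751 (-1.96 ± 0.42) and Scarna2 (-1.73 ± 0.69) were lower, against 22%. Pancreas was also the shallowest tissue, and Scarna8, Scarna3a and Scarna2 were found in 7, 7 and 5 of its 12 libraries. All 3 pancreas libraries of animals 11 to 14 had 0 counts of Scarna8 and of Scarna3a. Without the 3 testis-labelled libraries Scarna2 and Gm22767 missed the threshold at -1.42 and -2.06, and Scarna2 also did with 1 of 7 other TMM references (-1.65, adjusted p = 0.0571). In animals 11 to 14 alone Scarna2 turned to 1.60, and Gm22767 turned to 0.23 in the DESeq2 Wald test.

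Lung had 1 call, Scarna2 at 1.08 ± 0.34, against 17.4% of all genes higher and 14.2% lower. Scarna2 in lung was higher in animals 11 to 14 than in animals 1 to 10, by a log2 difference of 3.74 ± 0.42. The CPM ranges of the animal sets did not overlap. Muscle had 2 higher calls, Gm22728 at 2.40 ± 0.45 beside Scarna17, against 19.2% of all genes higher and 10.7% lower. Of the Gm22728 counts in muscle, 101 were in animals 11 to 14 and 8 in animals 1 to 10, where 3 of 10 libraries had any, and in the DESeq2 Wald test the value was 0.97 and not called. The 3 libraries labelled testis had 5 rows higher, against 14.2%: Gm22728 at 3.42 ± 0.53, Gm23751 at 2.05 ± 0.41, Scarna8 at 1.84 ± 0.39, Gm22009 at 1.39 ± 0.45 and Gm25395 at 1.35 ± 0.42. The TMM-scaled level of Gm25395 was not higher there, at 77.3 CPM against a mean of 88.3 over the other tissues. Its call therefore shows only in the fit with the pool term and not in the levels. Gm25443 was lower there at -2.10 ± 0.59, against 6.86%. Gm22009 and Gm25443 missed the threshold without Testis 11 (adjusted p = 0.0780 and 0.134) or Testis 12 (0.0569 and 0.0969). Gm22728 reached 1.56 to 1.72 CPM in those 3 libraries, which are of animals 11 to 14. In the same animals the bone marrow libraries had 1.98 to 3.17 CPM. With snoRNA totals as the scale, Gm25395 turned to -1.32, Gm22009 to -0.53 and Gm23751 to -0.30 there. snoRNAs took a median of 35.6% of counts in these libraries, against 1.02% in intestine and 16.1% in spleen.

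By animal set, the Scarna17 level in liver was 9598 to 11247 CPM in animals 11 to 14 and 2359 to 48755 in animals 1 to 10, with medians of 10033 and 14852. The log2 difference was -1.41 ± 0.79 and did not pass (adjusted p = 0.223, edgeR quasi-likelihood test over 1029 genes). The liver effect itself differed between the sets by -1.22 ± 0.82 (adjusted p = 0.742). Sex, animal set and library pool are the same split within a tissue and cannot be told apart. Of 13 rows tested in this comparison, 7 were lower in liver in animals 11 to 14 and none higher, against 15.7% and 4.28% of all genes. In kidney 8 were lower and none higher, against 23% and 5.15%. In brain 6 were lower and none higher, against 28.8% and 3.6%, and in intestine 5 were lower and none higher, against 27.2% and 4.28%. Spleen had 2 lower and none higher, against 15.4% and 16.3%, and pancreas had neither, against 6.51% and 6.03%. Muscle had 3 higher and none lower, against 9.52% and 10.4%, although the median difference over the 13 rows there was -0.32 (all genes -0.24), and in lung 1 was higher and none lower, against 12.1% and 12.3%. Bone marrow had 3 higher and 2 lower, against 18.1% and 11.2%, and heart 1 higher and 2 lower, against 4.47% and 10.6%. Within animals 1 to 10, 7 of the 13 rows were higher in liver and 1 lower, against 14.7% and 21.6% of all genes. Within animals 11 to 14, 4 were higher and none lower, against 8.36% and 9.14%, and in the difference of the liver effect no row passed, against 0.292% higher and 1.55% lower.

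The tissue profile nearest to that of Scarna17 by Spearman's rho among the other tested genes was that of Mir122. Over 11 tissue means of log2 TMM-scaled CPM, Spearman's rho was 0.855 for Mir122, 0.782 for Mir29c, 0.745 for Mir101b, 0.727 for the snoRNA Gm26109 and 0.691 for the mitochondrial tRNA mt.Ta. Pearson's r was higher for Mir101b (0.909) than for Mir122 (0.875). Gm25443 ranked 7 with 0.645, and Scarna6 had -0.127. These are descriptions over 11 points that share libraries and scaling. Within liver the levels of Mir122 and Scarna17 did not follow each other across the animal sets, since Mir122 was 63374 to 75204 CPM in animals 11 to 14 and 10280 to 31963 in animals 1 to 10.

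Telomerase RNA (Terc), which also carries H/ACA and CAB boxes, had a different order from Scarna17. Its raw median was 21.1 CPM in spleen, 13.5 in bone marrow and 7.98 in liver, and 0 in kidney and pancreas. Rnu12, the U12 snRNA, had 2.49 CPM in liver (0 to 9.90) and 27.4 in intestine (8.29 to 167.5), so it was not highest where Scarna17 was. snRNA rows as a class took a median of 0.0162% of counts in liver, 0.0902% in spleen and 0.0611% in bone marrow.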

How the data were processed

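The 134 columns used, 131 matched to single samples and 3 testis columns to an animal only, hold raw counts per annotated gene, deposited with no normalisation by the authors. Liver 3, Pancreas 14 and a second library of each testis were not analysed here. Per the labels' protocols, RNA was kept in RNAlater, isolated with a miRNeasy kit, and made into size-selected TruSeq small RNA libraries. Reads were mapped to GRCm38 with STAR 2.5.1 and counted with featureCounts, per the submitters' processing notes. How strand and multiple matches were treated is not given in the sources.

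Genes were filtered with filterByExpr by tissue (minimum count 10), scaled by TMM and tested with edgeR 4.0.16 (R 4.3.3, limma 3.58.1) on tissue and library pool; DESeq2 1.42.0 was an alternative, and other TMM reference libraries were added after the data were seen. Of animals 1 to 10, pool N467 holds kidney, liver, lung, pancreas and spleen and N469 the other tissues; N541 holds animals 11 to 14 and was assumed for the testis columns. Raw CPM uses the unscaled library total. In simulated liver data over 1268 genes, 96% of genes changed 4-fold upward were called, 24% of those changed 2-fold upward, and 0.281% of unchanged genes. Downward, 80% of genes changed 4-fold and 36% of those changed 2-fold were called. The simulated tissues had equal means apart from these liver changes, so differences in composition between tissues were not covered.

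The members and lists were chosen with earlier results of these data known. All tested rows, the 5 untested rows with most counts and the 5 genes most like Scarna17 are named. Sign-flip tests planned for sums and for the ratio to all other scaRNAs were not used, and the Scarna17 to Scarna6 test was added after the data were seen. Replicate numbers are animals, so they pair libraries; same-animal libraries had a mean correlation of 0.0744 in their deviations, against -0.0093 for other animals. A floor is 3 counts.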

Additional observations from a re-analysis of the deposited data

Results flagged for a closer look

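The difference between animals 11 to 14 and animals 1 to 10 depended on the tissue for 9 of the 13 scaRNA rows tested (edgeR interaction test over 10 tissues), against 53.4% of all 1029 genes, so a call is common in the table as a whole. Sex, animal set and library pool are the same split within a tissue and cannot be told apart.

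Scarna2 had the smallest adjusted p, 1.76e-18. In lung its levels were 55.6 to 63.0 CPM in animals 11 to 14 and 1.46 to 9.87 in animals 1 to 10, and the groups did not overlap. In muscle the medians were 35.5 and 1.59 CPM. In intestine both libraries of animals 11 to 14 were at 0, against 0.839 to 5.16 CPM in animals 1 to 10.

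Gm22009 (adjusted p = 1.40e-08) had muscle medians of 7.14 CPM in animals 11 to 14 and 1.05 in animals 1 to 10, while kidney had 0 to 0.375 CPM in the 4 libraries of animals 11 to 14, on 1 count in all, and 0.426 to 2.58 in the 10 of animals 1 to 10. Those 4 kidney libraries held 301536 to 2663695 counts, against 9393931 to 14943881 in the 10. Gm23751 (adjusted p = 1.04e-08) also had a higher median in muscle, 15.3 against 4.93 CPM, and was called lower in animals 11 to 14 in liver (median 6.67 against 20.8), kidney (0 against 12.7) and intestine (2.33 against 9.41). For Gm25492 the adjusted p was 5.51e-08, and its 4 kidney libraries of animals 11 to 14 were at 0.

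Gm25395 (adjusted p = 1.76e-05) and Scarna6 (adjusted p = 0.0420) were called lower in animals 11 to 14 in 6 tissues each. Scarna6 in kidney ranged from 3.32 to 18.5 CPM in animals 11 to 14 and from 67.4 to 391 in animals 1 to 10, without overlap. The remaining rows were Scarna8 (adjusted p = 0.00379), Gm22767 (adjusted p = 0.0228) and Scarna3a (adjusted p = 0.0238). Scarna17 did not pass (adjusted p = 0.0589).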

How the results depend on the processing

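Scarna17 stayed called higher in liver under 36 alternatives, from 3.25 in pool N541 alone to 4.09 in animals 1 to 10 alone. With the replicate block (animal) it was 3.91, and 27 and 23 pairs were called higher and lower, as without the block, and 49 of the 50 calls were kept. Leaving out each liver library gave 3.48 to 4.08, each testis-labelled library 3.78 to 3.99. Calls changed to 47 higher and 39 lower with unscaled totals, 11 lower in N541 alone and 15 lower without the testis-labelled libraries; leaving out a library gave 26 to 29 higher and 19 to 27 lower and kept 41 to 49 of the 50 calls. Fewer were kept with snoRNA totals (24 of 50, 5 with opposite sign), in animals 1 to 10 alone (24 of 41), in N541 alone (22 of 36) and in the DESeq2 Wald test (35 of 50). Without the pool term 37 of 50 were kept, with DESeq2 size factors 39 of 50 and with unscaled totals 40 of 50. Without the testis-labelled libraries 29 of 38 were kept. Pools N467 and N469 hold different tissues, so in the fit only N541 links them. Another TMM reference alone, chosen after seeing the data, kept 40 to 48, and leaving out 107 of the 134 libraries, 1 at a time, changes that reference too; Scarna17 in muscle was lost under all 7. Unscaled totals moved the liver median over all genes from -0.56 to -0.74, snoRNA totals to -1.10.

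Opposite signs arose for Gm22009 in bone marrow (-0.10) and liver (0.091) in animals 1 to 10 alone. In N541 alone they arose for Scarna8 (0.25) and Gm25492 (0.32) in heart and for Scarna2 (1.60) and Scarna8 (-5.96, on 0 counts) in pancreas. With snoRNA totals they arose for Gm25395 (0.75) and Scarna2 (0.080) in kidney and Gm25395 (-1.32), Gm22009 (-0.53) and Gm23751 (-0.30) in testis. With unscaled totals Scarna17 in muscle was -0.19, and in the DESeq2 Wald test Gm22767 in pancreas was 0.23. The liver effect of Scarna17 between animal sets was 0.90 with snoRNA totals. The causes were not tested.

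The Scarna17 to Scarna6 ratio in animals 11 to 14 alone was 1.92 (exact p = 0.13, the smallest 4 animals allow). Leaving out each liver library gave 2.20 to 2.59 for it, 2.28 to 2.64 for the ratio to all others, 2.90 to 3.27 for the sum, 0.97 to 1.16 for the sum without Scarna17, -1.58 to -0.67 for the set difference in liver and -1.37 to -0.40 for that of the liver effect. The sums are on unscaled library totals, so percent of counts is the same scale and not an alternative to it. Pancreas, at a median of 100238.5 counts, limits what its zeros show.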
